A study of Mus musculus with 3 samples.

Results

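The collagen and laminin genes of the mouse nucleus accumbens were followed across the cell classes of 3 single-cell RNA libraries. Genes were taken by symbol, as any collagen alpha chain (Col, a number, a, a number) or laminin chain (Lama, Lamb, Lamc), with at least 10 unique molecular identifiers (UMIs, each counting 1 captured RNA molecule) over all cells. Of 28001 features, 56 had such a symbol and 50 reached the minimum. The symbol pattern also takes in Col4a3bp, which encodes a ceramide transfer protein and no collagen, so 49 of the 50 are collagens or laminins and Col4a3bp is counted apart. They comprise 11 fibrillar collagens, 8 basement membrane collagens, 11 laminins, 6 beaded filament or short chain collagens, 9 FACIT collagens (which sit on the surface of fibrils) and 4 transmembrane or other collagens. Just inside the minimum were Lama3 with 10 UMIs, Col9a1 with 11 and Col6a6 with 14. The 6 left out were Col17a1 with 5 UMIs, Col4a3 with 4, Col28a1 with 3, Col6a5 with 2, Col8a2 with 2 and Col10a1 with 1. The most counted were Col6a1 (1274 UMIs), Col4a1 (748), Col3a1 (744), Col4a2 (652) and Col1a2 (578).

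The mice carried the Thy1::ChR2 transgene, in which the Thy1 promoter drives a light-gated cation channel in subsets of neurons. Their accumbens cells were tagged with FLiCRE, a construct that writes a lasting mark in cells whose calcium is high while blue light is on, during light stimulation of the channel. All 3 samples had this strain and treatment, so the design holds 1 group and no untreated control, and the comparisons below are between cell classes within the same libraries. Age and sex are not given in the sources used here, and no label says that the libraries came from separate animals, so p-values measure the spread between 3 libraries, which may be technical.

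The libraries held 2717, 6627 and 2281 cell barcodes. After cells with few genes, many mitochondrial reads or high doublet scores were removed, 9923 cells remained, with median depths of 985.5, 2084 and 2674 UMIs in libraries 1, 2 and 3. The library number is the barcode suffix and is only a name. Pairs of libraries shared 7 to 22 barcodes. Cells were assigned to classes by counts of marker genes that include no collagen or laminin, which placed 76.0%, 84.2% and 87.0% of cells. The classes were neurons (4729 cells), oligodendrocytes (1178), astrocytes (889), endothelial cells (443), mural cells (281, the contractile cells around vessels), macrophages (265), microglia (251), oligodendrocyte precursors or OPCs (87), T cells (68) and fibroblasts (27). The fibroblast class is the thinnest, with 9, 13 and 5 cells in libraries 1, 2 and 3 and 9467, 23539 and 9493 UMIs in all, so that 1 UMI there is worth 106, 42.5 and 105 CPM (UMIs per 1000000 UMIs of the class and library). Among the 10 fibroblast markers, 8 were found in at least 10% of these cells and 1 was at 0. A further 30 cells had at least 3 fibroblast markers but not 2 times as many as of another class, so they entered no class, and the fibroblast levels below leave them out. The fibroblast markers summed to 7269 to 10035 CPM in fibroblasts, 399 to 523 CPM in mural cells and 15.3 to 51.6 CPM in endothelial cells. Mural markers summed to 1056 to 1791 CPM in fibroblasts. Of other lists there, OPC markers summed to 423 to 1053 CPM, ependymal to 527 to 951, astrocyte to 423 to 935 and neuron to 106 to 843. The part of RNA from other classes in the results was not tested.

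Collagens are secreted proteins of 3 chains wound into a helix. The fibrillar types, led by collagens I and III, are trimmed outside the cell and assemble into the tensile fibres of connective tissue, which in brain lie mainly in the meninges and around larger vessels. Basement membranes are thin sheets beneath endothelium and around mural cells and astrocyte endfeet. They are built from a network of collagen IV and a network of laminins, each laminin being a cross of 1 alpha, 1 beta and 1 gamma chain, held together by nidogens and the proteoglycans perlecan and agrin.

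The 3 vascular and stromal classes differed in which of these matrices their RNA encoded. In fibroblasts fibrillar collagens made up 52.0% of the 427 collagen and laminin UMIs, basement membrane collagens 23.7% and laminins 11.2%. In mural cells the same 3 sets made up 30.5%, 31.3% and 34.3% of 935 UMIs. In endothelial cells fibrillar collagens made up 1.65% of 665 UMIs, while basement membrane collagens held 61.8% and laminins 32.6%. These shares count molecules at the RNA's 3′ end, which do not grow with transcript length, although genes can still differ in how well that end is captured. By library the fibrillar share ran 54.6%, 52.6% and 44.2% in fibroblasts and 31.0%, 38.1% and 17.3% in mural cells, and the 2 classes did not overlap. Every share here is a description, with no test.

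**Figure D1:**
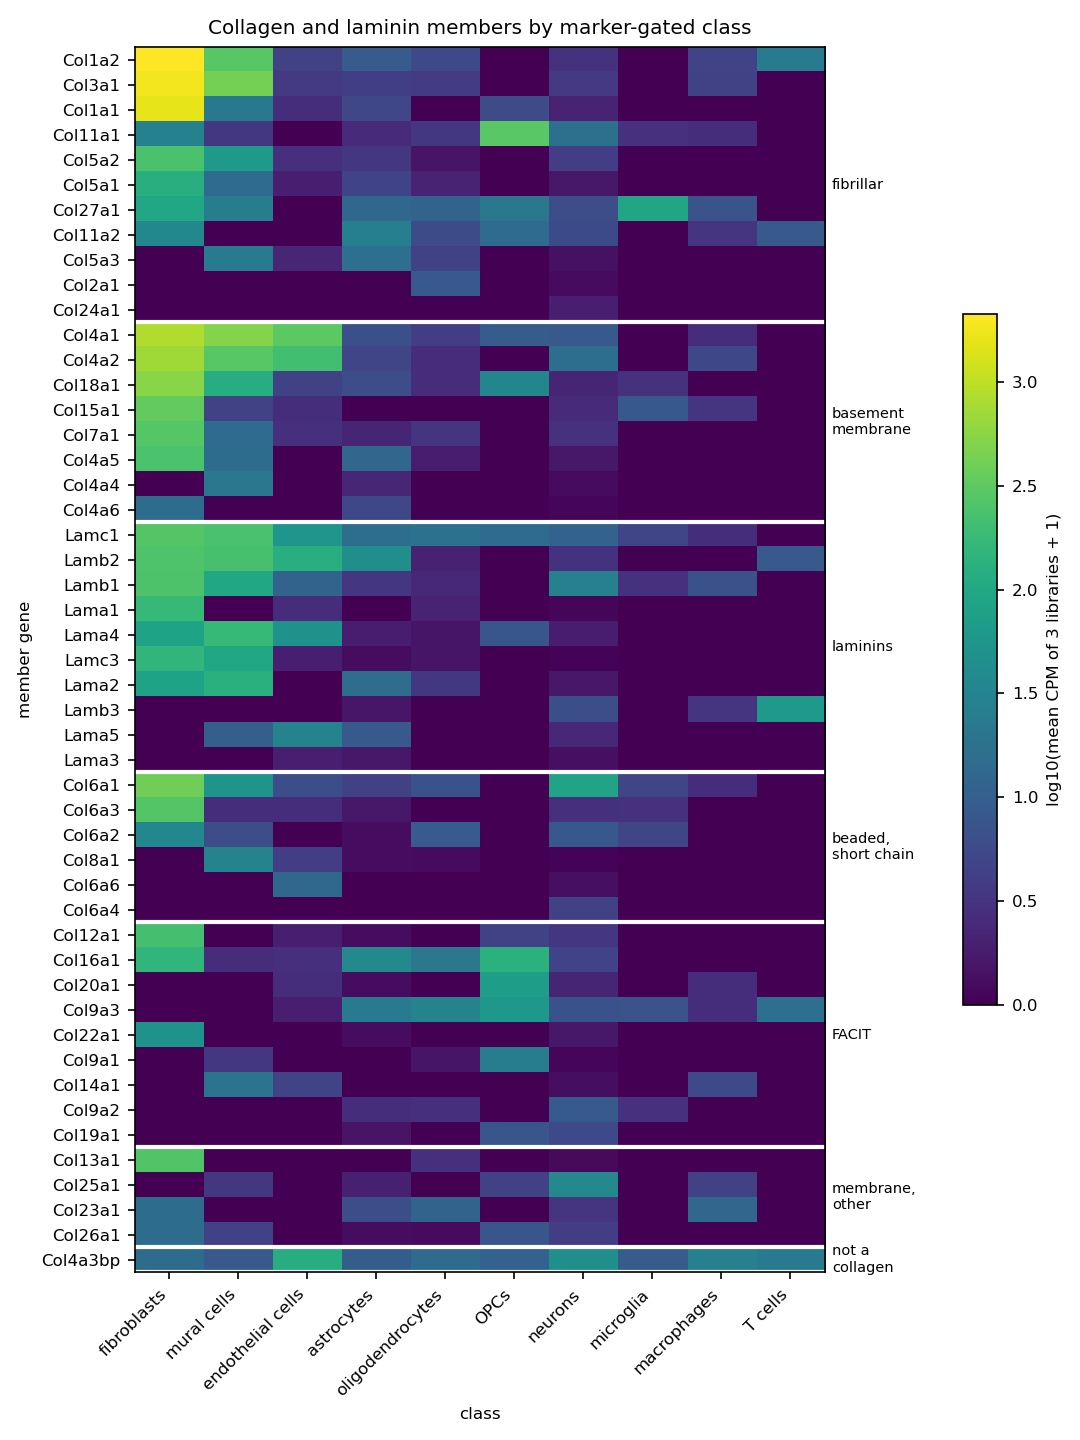
Mean level of each reported collagen and laminin gene over the 3 libraries (colour, log10 of CPM + 1) in the 10 cell classes, with genes grouped by structural set. The fibrillar genes Col1a1, Col1a2 and Col3a1 are bright (high) in fibroblasts and dark (low) in endothelial cells, while Col4a1 and Col4a2 are bright in all 3 vascular and stromal classes.

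Summed over its 11 genes, the fibrillar set reached 11197, 3484 and 3582 CPM in the fibroblasts of libraries 1, 2 and 3. Mural cells held 1246, 961 and 377 CPM, and endothelial cells 10.3, 21.2 and 3.83 CPM. The lowest fibroblast library lay above the highest mural one, and the lowest mural library above the highest endothelial one. The endothelial sum was below that of neurons (34.8, 42.5 and 31.6 CPM) and of astrocytes (79.0, 74.1 and 76.6 CPM) in each library.

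Basement membrane collagens and laminins together gave 7711, 2039 and 2950 CPM in fibroblasts, 2603, 1474 and 1700 CPM in mural cells and 1105, 716 and 551 CPM in endothelial cells. Fibroblasts were above mural cells in each library, though the ranges of these classes overlapped on this sum. Endothelial cells were the lowest of the 3 in each library. Outside these classes the sum was 121, 102 and 137 CPM in astrocytes, 88.2, 76.2 and 85.0 CPM in neurons, 26.7 to 36.2 CPM in oligodendrocytes and at most 36.0 CPM in microglia. The means ± SD over 3 libraries were 6087 ± 4425 CPM fibrillar against 4233 ± 3046 CPM basement membrane in fibroblasts, 861 ± 443 against 1926 ± 598 CPM in mural cells, and 11.8 ± 8.79 against 791 ± 284 CPM in endothelial cells (SD, n = 3). Library 1 was the highest for both sums in fibroblasts and mural cells and for the basement membrane sum in endothelial cells.

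**Figure D2:**
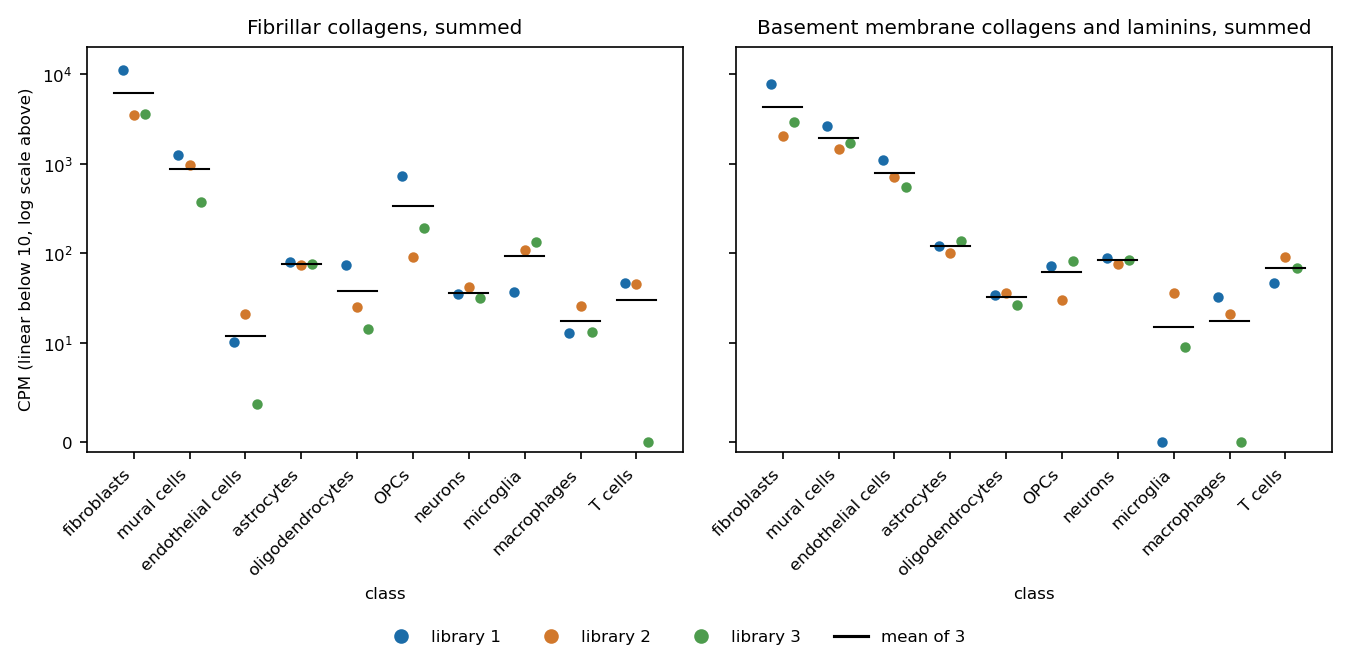
Summed CPM per library (points) of the fibrillar collagens and of the basement membrane collagens with laminins in each cell class, on an axis that is linear below 10 and logarithmic above. The ranges of the fibrillar sums separate fibroblasts, mural cells and endothelial cells. Those of the basement membrane sums overlap between fibroblasts and mural cells, although fibroblasts are higher in each library.

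Collagen I is made of 2 alpha1 chains (Col1a1, ENSMUSG00000001506, chr11:94936224-94953042, mm10) and 1 alpha2 chain (Col1a2, ENSMUSG00000029661, chr6:4504814-4541544), and collagen III of 3 copies of Col3a1 (ENSMUSG00000026043, chr1:45311538-45349706). The 250 bases before the RefSeq start of Col3a1 (GRCm38.p6, plus strand, chr1:45311288-45311537) are shown because this gene had the most fibrillar UMIs, with a TATAAA box 117 bases before the start in capitals.
Col3a1: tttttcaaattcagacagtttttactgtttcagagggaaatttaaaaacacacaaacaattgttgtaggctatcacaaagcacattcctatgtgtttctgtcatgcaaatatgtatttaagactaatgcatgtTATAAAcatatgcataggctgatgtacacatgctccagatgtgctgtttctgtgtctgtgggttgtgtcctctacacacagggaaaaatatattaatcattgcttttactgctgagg
TATAAA or its reverse complement TTTATA stood in 12.4% of 32851 promoters of the same length and in 7.69% of 39 promoters of 35 of the genes studied. A match describes the letters only.

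Col1a1 measured 2958, 765 and 1053 CPM in fibroblasts and 55.4, 0 and 7.39 CPM in mural cells. Endothelial cells held 1 UMI of it, in library 1. Fibroblasts were far above both in every library, and only 3 mural UMIs stood behind the mural values. Pooled over libraries, Col1a1 was 162 times as high in fibroblasts as in mural cells (95% interval 52.6 to 808, counting error only). The edgeR quasi-likelihood test with Benjamini-Hochberg adjustment over all genes gave adjusted p = 3.55e-06, with the same direction in 3 of 3 libraries. Against endothelial cells the ratio was 1096 (interval 189 to 44057) and the edgeR adjusted p was 5.83e-06.

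Col1a2, the partner chain, measured 3380, 1190 and 1791 CPM in fibroblasts, 499, 193 and 170 CPM in mural cells and 5.16, 5.30 and 0 CPM in endothelial cells. The 3 classes did not overlap, and mural cells held this chain at 170 CPM or more in each library, beside 3 UMIs of Col1a1 in all. Col1a2 was higher in fibroblasts than in mural cells by 2.81 ± 0.35 on the log2 scale (SE; edgeR adjusted p = 2.32e-05). It was higher in mural than in endothelial cells, with a pooled ratio of 59.5 (interval 19.6 to 295, resting on 3 endothelial UMIs) and an edgeR adjusted p of 7.34e-09.

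Col3a1 measured 3908, 1147 and 527 CPM in fibroblasts and 637, 569 and 81.3 CPM in mural cells, with 3 UMIs in endothelial cells, all in library 2. Fibroblasts were above mural cells in each library, but the lowest fibroblast value lay within the mural range. The difference was 1.90 ± 0.41 on the log2 scale (edgeR adjusted p = 0.00248, or 0.118 without the library block), and 1 fibroblast held 19 of the 69 fibroblast UMIs. Mural cells were 110.0 times as high as endothelial cells (interval 36.9 to 539, edgeR adjusted p = 2.2e-09). Within the mural class, pericytes (189 cells) held 509, 834 and 50.9 CPM of Col3a1 and smooth muscle cells (56 cells) 1114, 166 and 80.1 CPM. In smooth muscle of library 1 a single cell held all 9 Col3a1 UMIs and all 13 Col1a2 UMIs, so the values 1114 and 1609 CPM there are those of 1 cell. Col1a2 gave 92.4 and 160 CPM in the smooth muscle of libraries 2 and 3, and 212, 278 and 191 CPM in pericytes.

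Col5a2 and Col5a1, chains of the collagen V that nucleates fibrils, were sparse. Col5a2 gave 423, 170 and 105 CPM in fibroblasts, 55.4, 91.5 and 37.0 CPM in mural cells, and fibroblasts exceeded mural cells in all 3 libraries. Col5a1 gave 211, 42.5 and 105 CPM in fibroblasts and 0, 25.4 and 14.8 CPM in mural cells. Neither passed the filter for enough counts in a comparison of vascular classes. The other 6 fibrillar genes (Col2a1, Col5a3, Col11a1, Col11a2, Col24a1 and Col27a1) are given with neurons and glia.

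Collagen IV of vessel walls is a trimer of Col4a1 (ENSMUSG00000031502, chr8:11198423-11312826, minus strand) and Col4a2 (ENSMUSG00000031503, chr8:11312805-11449287, plus strand). The 2 genes stand head to head and their annotated starts overlap by 22 bases. Col4a1 measured 1796, 127 and 632 CPM in fibroblasts, 720, 381 and 414 CPM in mural cells and 460, 273 and 180 CPM in endothelial cells. All 3 classes overlapped. Mural cells were above endothelial cells in 3 of 3 libraries, by 0.78 ± 0.22 on the log2 scale (edgeR adjusted p = 0.00836). The call was lost without the library block (edgeR adjusted p = 0.313), with DESeq2 (0.137), without the low-count filter (0.196) and without library 2 (0.114) or library 3 (0.211). Fibroblasts could not be separated from mural cells (0.18 ± 0.50, adjusted p = 0.871, edgeR) or from endothelial cells (0.77 ± 0.52, adjusted p = 0.385, edgeR).

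Col4a2 measured 1162, 425 and 527 CPM in fibroblasts, 471, 158 and 251 CPM in mural cells and 258, 196 and 161 CPM in endothelial cells. Fibroblasts exceeded endothelial cells in all libraries, by 1.33 ± 0.35 on the log2 scale (edgeR adjusted p = 0.0368, or 0.0685 without the library block and 0.062 with DESeq2). That call did not hold with any library left out. Mural and endothelial cells overlapped (0.36 ± 0.27, edgeR adjusted p = 0.345). Of the Col4a1 and Col4a2 UMIs together, Col4a1 made up 59.0% in endothelial cells (exact 95% interval 54.0% to 63.8%, counting error only), 65.7% in mural cells (59.3% to 71.7%), while in fibroblasts the 2 genes had 26 UMIs each (35.8% to 64.2%). In neurons it made up 33.6% (28.1% to 39.4%), with 35.0%, 34.0% and 31.9% in the 3 libraries. How well the 3′ end of each gene is captured enters every one of these shares.

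Most of the other basement membrane collagens had their highest mean CPM in fibroblasts, but most of their UMIs lay outside the fibroblast class. Fibroblasts held 20 of the 206 Col18a1 UMIs in kept cells and 12 of the 102 Col15a1 UMIs. Cells of no class, some of which had fibroblast markers, held 107 of the Col18a1 UMIs and 67 of the Col15a1 UMIs. Col18a1, the source of the fragment endostatin, measured 1162, 340 and 105 CPM in fibroblasts, 222, 102 and 29.6 CPM in mural cells and 3 UMIs in endothelial cells. Fibroblasts were higher than endothelial cells by a pooled ratio of 130.5 (interval 38.7 to 686, edgeR adjusted p = 7.11e-05, not called with any library left out). Its relative Col15a1 measured 634, 170 and 211 CPM in fibroblasts, a pooled ratio of 52.0 over mural cells (interval 11.6 to 478), and passed no filter for a test between vascular classes. Col4a5, a chain of the minor collagen IV network, measured 317, 85.0 and 316 CPM in fibroblasts, from 4 cells, and 19.3, 7.14 and 8.67 CPM in astrocytes. Col7a1, the anchoring fibril collagen, gave 739, 0 and 105 CPM in fibroblasts from 8 UMIs. Col4a4 was seen in mural cells (0, 25.4 and 37.0 CPM) and Col4a6 in astrocytes (5.78, 5.36 and 1.45 CPM), each from 10 UMIs.

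**Figure D3:**
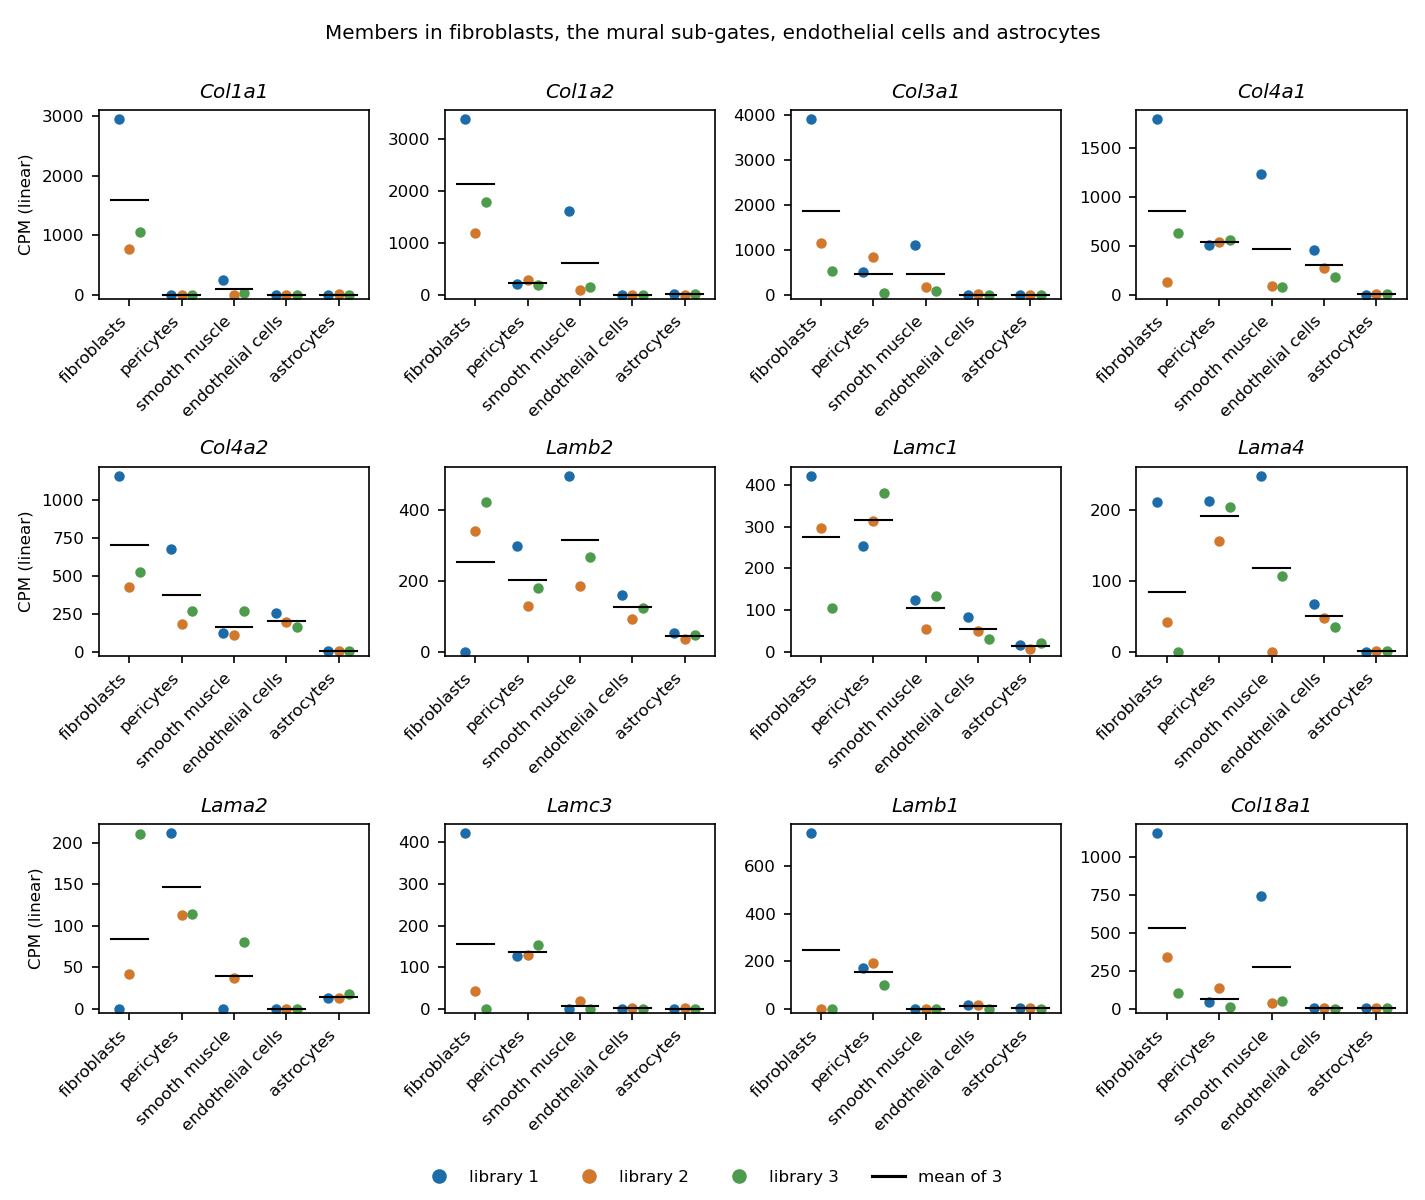
CPM per library (points) of 12 collagen and laminin genes in fibroblasts, pericytes, smooth muscle cells, endothelial cells and astrocytes, on linear axes. Outside fibroblasts Col1a1 is near 0 apart from smooth muscle of library 1 (247 CPM, from 2 UMIs in 1 cell). Col4a1, Lamc1 and Lamb2 have points well above 0 in several vascular classes.

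All 6 laminin genes tested were higher in mural than in endothelial cells: Lama2, Lama4, Lamb1, Lamb2, Lamc1 and Lamc3. All but Lamb2 passed the count filter only through mural cells, where they are high, so those calls are no support. Lamb2 lost its call under several settings given with it. Without library 2 none was called (5 lost the call and Lamb1 was not tested). Laminins with the alpha2 chain are those of mural and astrocyte basement membranes, and those with alpha4 and alpha5 of endothelium. Lama2 (ENSMUSG00000019899, chr10:26980036-27619758) measured 194, 91.5 and 96.1 CPM in mural cells and had no UMI in 443 endothelial cells. It was at least 28.6-fold higher in mural cells, taking 3 UMIs over the whole endothelial class as the floor (edgeR adjusted p = 1.71e-06). Lama2 passed the count filter only through mural cells, so this call was fixed by the filter and is no support.

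Lamc3 (ENSMUSG00000026840, chr2:31887291-31946539), the rarer gamma3 chain, measured 83.1, 81.3 and 118 CPM in mural cells, against 1 endothelial UMI. The pooled ratio was 79.1 (interval 13.3 to 3211, edgeR adjusted p = 2.58e-06). Lamc3 also passed the count filter only through mural cells, so its call is no support. Pericytes alone held 127, 130 and 153 CPM, and fibroblasts 423, 42.5 and 0 CPM. The pericyte values lay close together, whereas the fibroblast values did not.

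The common chains were shared between the walls of the vessel. Lamc1 (gamma1, ENSMUSG00000026478, chr1:153218922-153332786) measured 194, 213 and 296 CPM in mural cells, 82.6, 50.4 and 30.6 CPM in endothelial cells and 423, 297 and 105 CPM in fibroblasts. Mural cells did not overlap with endothelial cells and were higher by 2.27 ± 0.34 on the log2 scale (edgeR adjusted p = 3.01e-05). Fibroblasts were higher than endothelial cells by 2.07 ± 0.44 (edgeR adjusted p = 0.0142, not called with any library left out). In both comparisons Lamc1 passed the count filter only through the class where it is high, so neither call is support.

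Lamb1 (beta1, ENSMUSG00000002900, chr12:31265234-31329644) measured 111, 127 and 59.1 CPM in mural cells and 15.5, 15.9 and 0 CPM in endothelial cells, higher in mural cells by 3.25 ± 0.53 (edgeR adjusted p = 6.65e-05). Lamb1 passed the count filter only through mural cells, so this call is no support. Lamb2 (beta2, ENSMUSG00000052911, chr9:108479736-108490530) measured 332, 147 and 200 CPM in mural cells and 160, 92.8 and 123 CPM in endothelial cells. These ranges overlapped, with mural cells higher in 3 of 3 libraries, by 0.80 ± 0.27 (edgeR adjusted p = 0.0276). That call was lost without the library block (edgeR adjusted p = 0.222), with DESeq2 (0.223), in cells of at least 1000 UMIs and with any library left out (0.11 to 0.176). In fibroblasts Lamb2 gave 0, 340 and 421 CPM and Lamb1 739, 0 and 0 CPM, so the beta chain counted differed between libraries, at 1 UMI to 106 CPM or less.

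Lama4 (alpha4, ENSMUSG00000019846, chr10:38965515-39110188) measured 249, 107 and 148 CPM in mural cells and 67.1, 47.7 and 34.5 CPM in endothelial cells, without overlap, and was higher in mural cells by 1.67 ± 0.35 (edgeR adjusted p = 0.000749, or 0.0705 without library 3). Lama4 too passed the count filter only through mural cells, so this call is no support. Lama5 was highest in endothelial cells (41.3, 23.9 and 23.0 CPM), above the next class in each library, and passed no filter for a test there. Lama1, a chain of the outer brain surface, gave 106, 85.0 and 316 CPM in fibroblasts, from 6 UMIs in 6 cells, and was at least 17.3-fold higher than in mural cells against the 3-UMI floor over the class.

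Between fibroblasts and mural cells 5 of the 50 genes passed the count filter, and 3 were higher in fibroblasts, against 7.89% of the 418 genes tested, and 0 were lower, against 13.2%. These 3 were the fibrillar genes Col1a1, Col1a2 and Col3a1, and the 2 that did not pass the test were Col4a1 and Col4a2 (Col4a2 1.18 ± 0.46, edgeR adjusted p = 0.0929). The median log2 difference was 1.90 over the 5 and -0.01 over all genes tested. Between fibroblasts and endothelial cells 9 genes were tested and 7 were higher in fibroblasts, against 6.48% of 2022 genes, and 0 were lower, against 9.55%, with a median of 5.28 beside -0.35. The last of the 7, Col6a1, a chain of the beaded filaments of collagen VI, measured 423, 255 and 527 CPM in fibroblasts and 0, 15.9 and 0 CPM in endothelial cells (5.28 ± 0.87, edgeR adjusted p = 0.0041). Of the 7, all but Col4a2 passed the count filter only through fibroblasts, so those calls are no support. Lamb2 was not separated (0.97 ± 0.69, edgeR adjusted p = 0.406).

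Between mural and endothelial cells 11 genes were tested, of which 9 were higher in mural cells, against 15.6% of 3551 genes, and 1 was lower, against 18%. The median was 2.27 beside -0.02 for all genes. A gene that passed the filter only through the class where it is high had to differ, so these counts describe the genes tested and not the whole list. Such genes included Col1a1, Col1a2, Col3a1, Col18a1, Col6a1 and Lamc1 in fibroblasts over endothelial cells, and Col1a1, Col1a2 and Col3a1 in fibroblasts over mural cells. In mural over endothelial cells they were Col1a2, Col3a1, Lama2, Lama4, Lamb1, Lamc1 and Lamc3, with Col4a3bp through endothelial cells. Their calls there rest on the filter and are no support. With library 1 or library 2 left out, 0 genes passed the edgeR threshold for fibroblasts over mural cells, with 3 at an unadjusted p under 0.05 in each case, while without library 3 the same 3 genes passed. For fibroblasts over endothelial cells 0 passed edgeR with any library left out, with 6, 6 and 7 at an unadjusted p under 0.05 without libraries 1, 2 and 3. Mural over endothelial calls numbered 3 without library 2 (Col1a2, Col3a1 and Col4a3bp). Macrophage markers summed to 1579, 330 and 37.0 CPM in the mural cells of libraries 1, 2 and 3 and mural markers to 63.7 to 188 CPM in endothelial cells, and their part in these results was not tested. With all libraries DESeq2 called 3, 6 and 8 genes in these 3 comparisons.

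**Figure D4:**
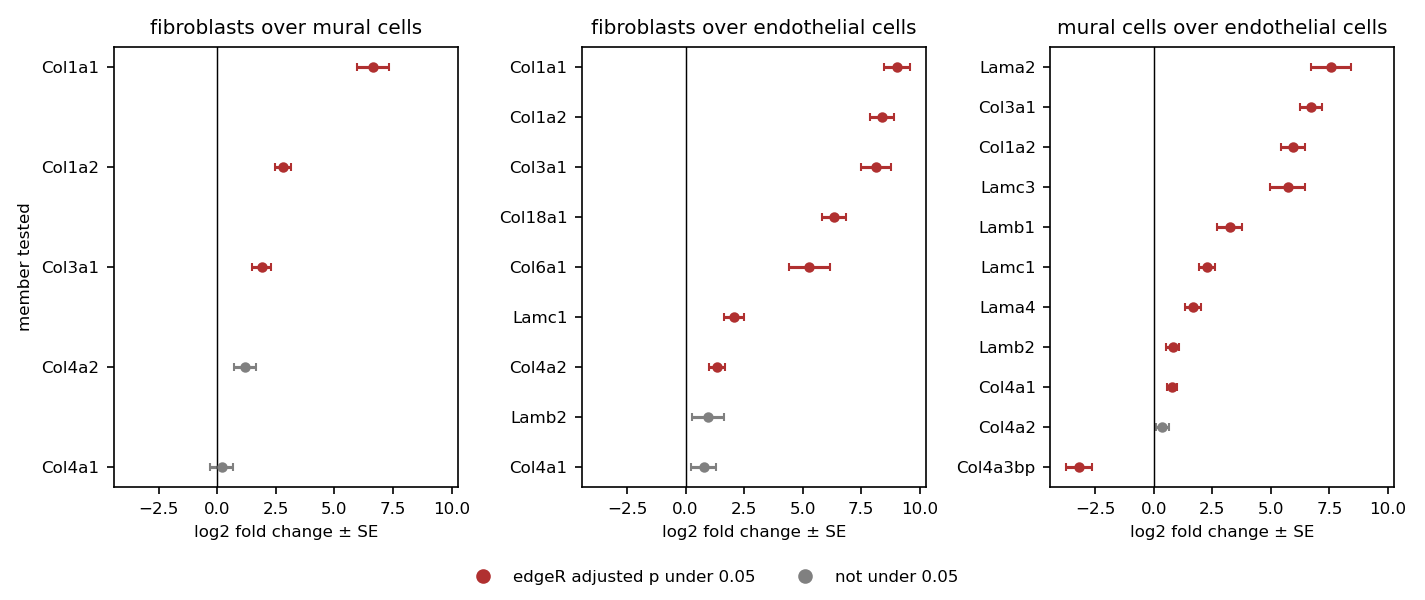
Log2 fold change ± SE from edgeR of each gene tested in fibroblasts over mural cells, fibroblasts over endothelial cells and mural over endothelial cells, with red for an adjusted p under 0.05. The fibrillar genes lie to the right in all 3 comparisons in which they were tested, and the 6 laminins in mural over endothelial cells are all to the right of 0.

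In 1 fit over 8 classes, fibroblasts, mural and endothelial cells were set against neurons, astrocytes, oligodendrocytes, OPCs and microglia. Of 22 genes tested, 14 were higher in the vascular and stromal classes, against 9.13% of 7204 genes, and 0 were lower, against 15.8%. They were Col4a1 (edgeR adjusted p = 1.18e-26), Col4a2 (1.36e-25), Lamb2 (3.34e-13), Lamc1, Col3a1, Lama4, Col1a2, Lamb1, Col18a1, Col5a2, Col6a1, Lamc3, Col15a1 and Col1a1 (0.0139). Fold changes are not given here because many parenchymal classes held 0 UMIs of these genes and the fitted size then depends on the prior count. Col16a1 (adjusted p = 0.954), Col27a1 (0.252) and Col11a1 (0.313) were among the 8 that did not pass this edgeR test. For Col4a5, Lama2, Col12a1 and Col13a1 no standard error could be determined. Without library 2 the count was 9 genes, with the calls of Col3a1, Col5a2, Col6a1, Col15a1 and Lamc3 lost (edgeR adjusted p = 1 for each), and without library 1 those of Col1a1, Col15a1 and Lamb1 were lost.

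In neurons the list was led by beaded filament chains (31.9% of 3537 collagen and laminin UMIs), laminins (18.8%), fibrillar (14.7%) and transmembrane forms (13.9%). Col6a1 (ENSMUSG00000001119, chr10:76708792-76726168) measured 115, 71.7 and 75.6 CPM in neurons, 1.93, 5.36 and 2.89 CPM in astrocytes and 7.38, 8.65 and 1.67 CPM in oligodendrocytes. Neurons did not overlap with either glial class. In 1 fit over the 7 parenchymal and immune classes Col6a1 was the 1 gene of the list that passed the filter, which it did through neurons, where it is high. Its call as higher in neurons, beside 36.9% of 6030 genes higher and 19.6% lower, was therefore fixed by the filter and is no support, and without library 2 it was not tested. In the same fit it was not separated in astrocytes (adjusted p = 0.711; 38.6% of genes called in either direction), oligodendrocytes (0.387; 38.5%), microglia (0.643; 20.6%) or OPCs (14.7%), with 0 calls by edgeR, 0 at an unadjusted p under 0.05 and 0 by DESeq2. The partner chains were low, with Col6a2 at 12.8, 4.55 and 4.56 CPM and Col6a3 at 1.16, 0.866 and 3.58 CPM in neurons.

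Col6a1 had a UMI in 16.9% ± 4.06 of neurons (median depth 2286 UMIs) and in 0.968% ± 0.556 of astrocytes (median 2020 UMIs; SD, n = 3). With each cell thinned to 500 UMIs, which left out 49 neurons and 18 astrocytes, the shares were 4.78% ± 1.19 and 0.157% ± 0.272. It reached 144, 75.5 and 93.5 CPM in D1 neurons and 84.1, 76.9 and 98.3 CPM in D2 neurons, the dopamine receptor classes of striatal projection neurons, and these overlapped. No Col6a1 UMI was found in 37 Pvalb interneurons (median depth 3574 UMIs), and 1 of 43 Sst-Npy interneurons had it.

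Col25a1 (ENSMUSG00000058897, chr3:130131501-130599877), a membrane collagen of neurons, measured 36.0, 26.5 and 44.0 CPM in neurons. Astrocytes held 2 UMIs of it and oligodendrocytes 0. The 250 bases before its RefSeq start (GRCm38.p6, plus strand, chr3:130180595-130180844, inside the annotated gene) are shown because neurons held 411 UMIs of this gene beside the 2 of astrocytes. Capitals mark a CCAAT box 191 bases before the start, a GGGCGG box 40 bases before it, and CCGCCC, the same box on the opposite strand, 114 bases before it.
Col25a1: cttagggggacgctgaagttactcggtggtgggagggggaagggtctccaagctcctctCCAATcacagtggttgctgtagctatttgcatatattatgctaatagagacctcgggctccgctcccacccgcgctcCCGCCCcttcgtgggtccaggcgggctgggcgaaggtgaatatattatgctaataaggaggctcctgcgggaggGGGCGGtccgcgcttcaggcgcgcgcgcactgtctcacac
On either strand CCAAT (reverse complement ATTGG) stood in 33.9% of all 32851 promoters and 33.3% of the 39 of these genes, and GGGCGG in 32.7% and 56.4%.

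Sst-Npy interneurons held the most Col25a1, with 150, 456 and 698 CPM, from 15 of 43 cells. That was above D1 neurons (25.5, 16.8 and 37.6 CPM) and D2 neurons (44.1, 21.2 and 25.6 CPM) in every library, with 1 cell holding 15 UMIs. Transmembrane collagens made up 74.0% of the 96 collagen and laminin UMIs of this class. Pvalb interneurons differed again, with Lamb1 at 145, 148 and 181 CPM (16 of 37 cells), Col19a1, a FACIT collagen, at 241, 111 and 45.3 CPM, and all laminins at 193, 198 and 181 CPM. All neurons together had 32.5, 20.6 and 28.7 CPM of Lamb1 and 5.80, 4.33 and 3.26 CPM of Col19a1. These sub-class levels are descriptions, with no test.

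Col11a1 (ENSMUSG00000027966, chr3:114030540-114220718), a minor fibrillar collagen, was the 1 gene of 6 tested that was called between D1 and D2 neurons. It measured 12.7, 21.5 and 23.8 CPM in D1 neurons and 4.01, 8.38 and 4.27 CPM in D2 neurons. The 2 classes did not overlap, and D1 neurons were higher by 1.56 ± 0.32 on the log2 scale (edgeR adjusted p = 9.76e-05). Col11a1 passed the count filter only through D1 neurons, where it is high, so this call is no support. Of 6 genes tested 1 was higher, against 2% of 8990 genes, and 0 were lower, against 1.85%, with a median of 0.03 beside -0.01. The call was lost with DESeq2 (adjusted p = 0.745), in edgeR without the library block (adjusted p = 0.217) and with library 3 left out (0.14), and the gene passed no filter without library 2, with a stricter gate or in cells of at least 1000 UMIs. The other 5 (Col4a2, Col6a1, Lamb1, Col25a1 and Col4a3bp) differed by -0.12 to 0.17.

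**Figure D5:**
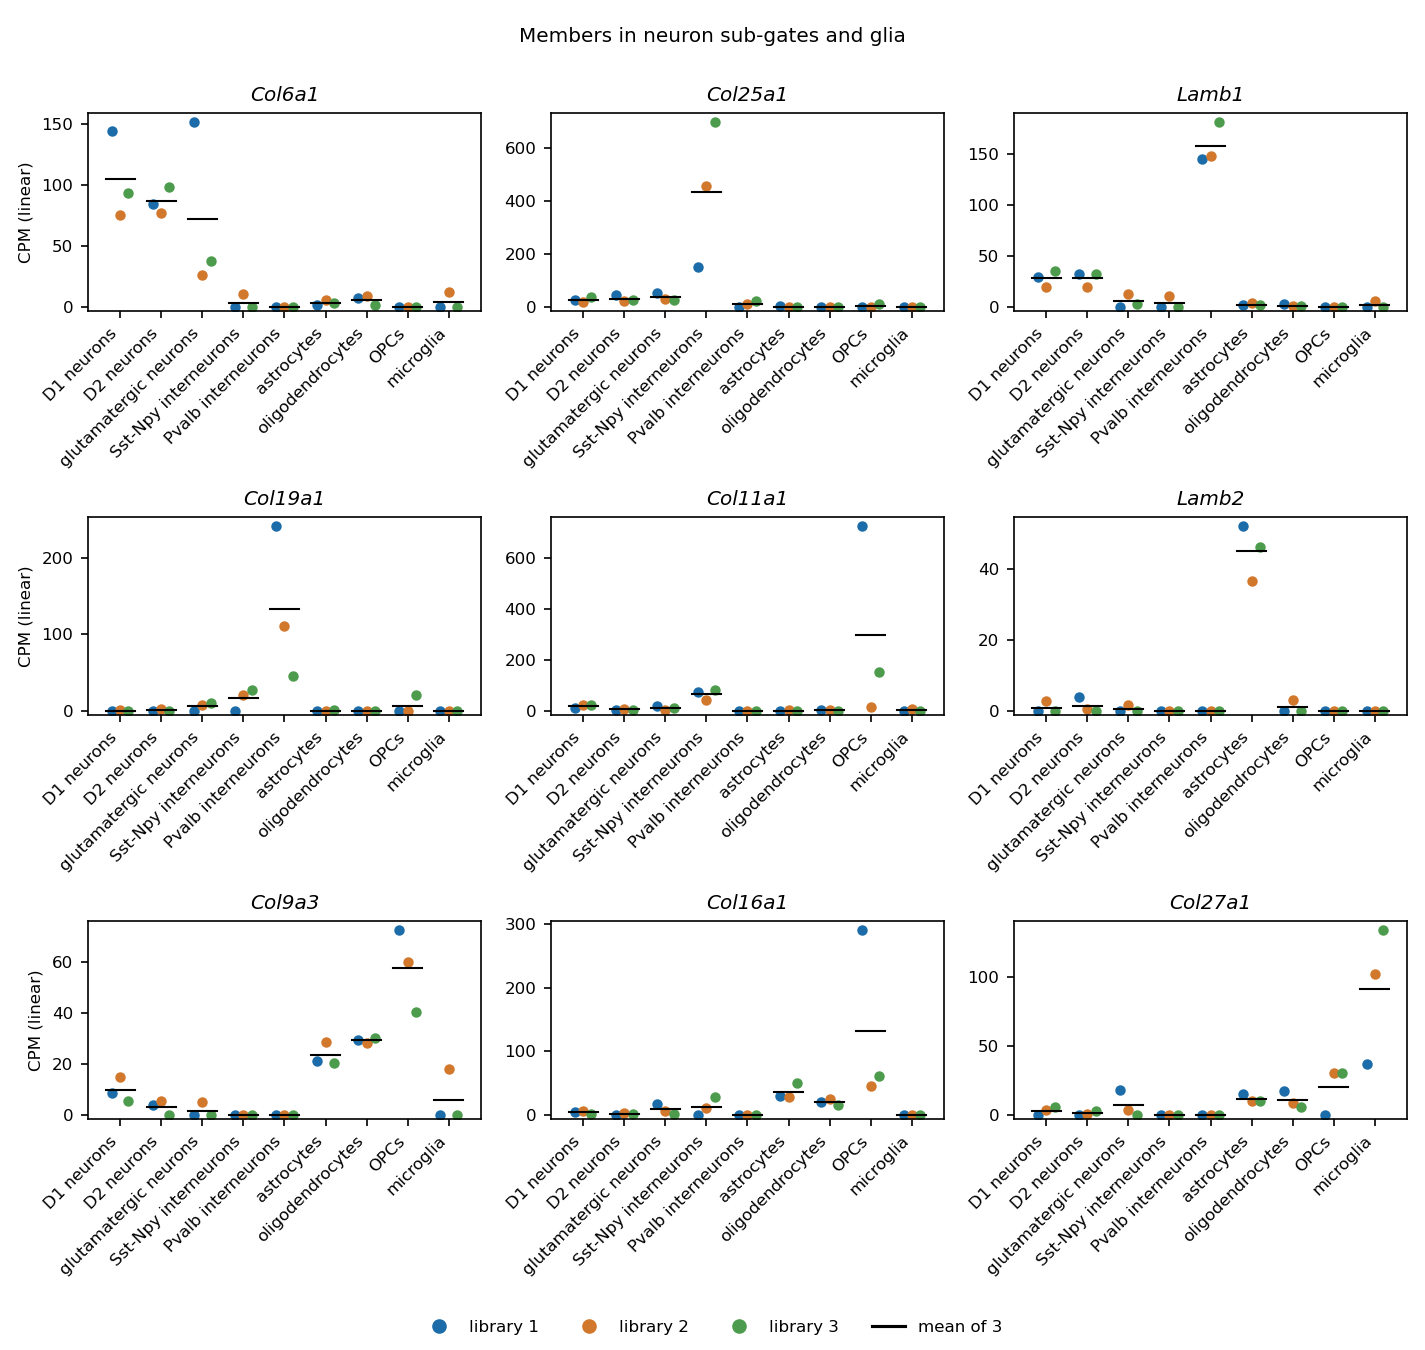
CPM per library (points) of 9 collagen and laminin genes in neuron sub-classes and glial classes, on linear axes. Col25a1 peaks in Sst-Npy interneurons, Lamb1 and Col19a1 in Pvalb interneurons, Lamb2 in astrocytes, and Col9a3 and Col16a1 in glia.

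Neurons and glia were also compared in pairs, which were chosen after the data were seen because the 7-class fit kept 1 gene. Between neurons and astrocytes 12 genes were tested, 6 were higher in neurons (29.4% of 9840 genes were) and 5 lower (30.7% were), so each share was near that of genes at large or above it. The higher genes were Col25a1 (pooled ratio 36.4, interval 10.0 to 301, edgeR adjusted p = 0.000142), Col6a1 (3.82 ± 0.36 on the log2 scale, edgeR adjusted p = 7.49e-05), Lamb1, Col11a1, Col4a2 and Col4a3bp. Col25a1, Col6a1, Lamb1, Col11a1 and Col4a2 passed the filter only through neurons, where they are high, so their calls are no support. Lamb1 measured 1.93, 3.57 and 1.45 CPM in astrocytes, below neurons in each library (2.70 ± 0.45, edgeR adjusted p = 0.000976). Col4a2 measured 15.1, 13.4 and 16.0 CPM in neurons and 3.85, 3.57 and 4.34 CPM in astrocytes, without overlap (1.29 ± 0.41, edgeR adjusted p = 0.0257), a call lost with DESeq2 (0.13) and without library 2 or 3. The neuronal level of Col4a2 lay below every library of the vascular classes, while that of Lamb1 lay above every library of endothelial cells (0 to 15.9 CPM).

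Astrocytes, whose endfeet lie on the vascular basement membrane, held more of Lamb2, Lama2, Col16a1, Col11a2 and Col9a3 than neurons. These genes passed the count filter only through astrocytes, where they are high, so their calls, here and in the next paragraph, are no support. Lamb2 measured 52.0, 36.6 and 46.3 CPM in astrocytes and 3.48, 2.49 and 0.326 CPM in neurons, which were lower by 5.06 ± 0.48 on the log2 scale (edgeR adjusted p = 8.56e-05). Lama2 measured 13.5, 12.5 and 17.3 CPM in astrocytes and 0, 0.975 and 0.978 CPM in neurons (neurons lower, log2 -4.53 ± 0.57, edgeR adjusted p = 0.000193). Neither gene's ranges overlapped between the 2 classes. With Lamc1 (17.3, 6.25 and 21.7 CPM), astrocytes thus held RNA for an alpha2, a beta2 and a gamma1 chain. Lamc1 was not separated from neurons (-1.01 ± 0.43, edgeR adjusted p = 0.0736).

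Of the non-laminin genes, Col16a1, a FACIT collagen, measured 28.9, 28.6 and 50.6 CPM in astrocytes and 3.48, 5.09 and 2.28 CPM in neurons (neurons lower, log2 -3.82 ± 0.44, edgeR adjusted p = 0.000192). Col11a2, a minor fibrillar chain, measured 32.8, 25.9 and 20.2 CPM in astrocytes and 5.80, 5.41 and 2.61 CPM in neurons (log2 -3.11 ± 0.34, edgeR adjusted p = 0.000153). Col9a3, a FACIT chain (ENSMUSG00000027570, chr2:180597790-180622189), measured 21.2, 28.6 and 20.2 CPM in astrocytes and 4.64, 10.1 and 2.93 CPM in neurons (log2 -2.60 ± 0.38, edgeR adjusted p = 0.000655). In each case the classes did not overlap. Col5a3 gave 7.71, 14.3 and 24.6 CPM in astrocytes (37 UMIs) and 0, 50.8 and 14.8 CPM in mural cells (12 UMIs), which overlapped, and it was not tested.

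Oligodendrocytes differed from neurons at 9 of 9 genes tested, with 6 higher in neurons (32.6% of 9972 genes were) and 3 lower (31.9%). Col25a1 was at least 29.9-fold higher in neurons against the 3-UMI floor (edgeR adjusted p = 1.63e-05), and Lamb1, with 3 oligodendrocyte UMIs, had a pooled ratio of 22.3 (interval 7.55 to 109, edgeR adjusted p = 1.56e-05). Col25a1, Lamb1, Col6a1 and Col4a2 passed the filter only through neurons, and Col16a1 and Col9a3 only through oligodendrocytes, so these calls are no support. The lower genes were Col16a1 (log2 -3.10 ± 0.37), Col9a3 (-2.94 ± 0.40) and Lamc1 (-1.35 ± 0.33), with edgeR adjusted p of 1.44e-05, 4.69e-05 and 0.00307. Without library 3 the calls of Lamc1 (edgeR adjusted p = 0.0575), Col4a2, Col11a1 and Col4a3bp were lost. Oligodendrocytes held 29.5, 28.3 and 30.1 CPM of Col9a3, close together across libraries. FACIT collagens made up 38.9% of their 383 collagen and laminin UMIs.

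Astrocytes exceeded oligodendrocytes in 3 of 7 genes tested, against 24.8% of 8245 genes, and were lower in 0, against 21.5%. These were Lamb2 (4.77 ± 0.57, edgeR adjusted p = 1.69e-08), Col11a2 (2.68 ± 0.50, edgeR adjusted p = 3.71e-05) and Lama2 (2.45 ± 0.62, edgeR adjusted p = 0.00135). All 3 passed the count filter only through astrocytes, where they are high, so these calls are no support. Lama2 measured 2.46, 2.36 and 2.51 CPM in oligodendrocytes. Col16a1 (0.78, edgeR adjusted p = 0.0637) and Col9a3 (-0.34) did not separate the 2 glial classes.

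OPCs gave 78 collagen and laminin UMIs from 87 cells, 44.9% of them fibrillar. Of these, Col11a1 gave 725, 15 and 152 CPM, from 26 UMIs in 16 cells, so the libraries differed widely. Col16a1 measured 290, 45.1 and 60.8 CPM in OPCs and 19.7, 24.4 and 15.9 CPM in oligodendrocytes, without overlap, and was higher in OPCs by 1.58 ± 0.49 (edgeR adjusted p = 0.0383). Col16a1 passed the count filter only through OPCs, so this call is no support. It was 1 of 2 genes tested, against 13.7% of 4040 genes higher and 15.2% lower, and the call was lost with DESeq2 (adjusted p = 0.06), without the library block (edgeR adjusted p = 0.052) and without any 1 library. Col9a3 gave 72.5, 60.1 and 40.5 CPM in OPCs, above every library of the oligodendrocytes, from which it was not separated by the test (0.42, edgeR adjusted p = 0.491).

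In microglia fibrillar genes made up 68.0% of 50 UMIs of the list, and their sum was 37.2, 108 and 134 CPM. Col27a1, a fibrillar collagen of developing cartilage, accounted for nearly all of it, at 37.2, 102 and 134 CPM from 33 UMIs in 27 of 251 cells. Macrophages held 0 to 20.9 CPM of Col23a1, a transmembrane collagen. Between microglia and macrophages no gene of the list passed the filter (19.4% of 1806 genes were called in either direction). Lamb3 was seen in T cells at 46.3, 67.6 and 68.1 CPM, from 5 UMIs, and in neurons at 4.64, 4.98 and 6.19 CPM.

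By mean CPM over the 10 classes, 28 of the 50 genes were highest in fibroblasts, 6 in mural cells, 5 in neurons, 5 in OPCs, 4 in endothelial cells, 1 in oligodendrocytes and 1 in T cells. Counting only genes with over 5 UMIs in their highest class leaves 18 for fibroblasts, 5 for mural cells, 5 for neurons, 3 for endothelial cells, 2 for OPCs, 1 for oligodendrocytes and 0 for T cells. Of the 18, 9 had a lowest fibroblast library above the highest library of the next class: Col1a1, Col1a2, Col5a2, Col4a5, Col15a1, Lama1, Col6a1, Col12a1 and Col13a1. Col13a1, a membrane collagen, gave 211, 467 and 105 CPM in fibroblasts and was at least 40.4-fold higher than in mural cells by the 3-UMI floor. Col12a1, a FACIT collagen, gave 106, 127 and 421 CPM there.

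The same separation from the next class held for Col8a1, a short chain collagen of vessel walls, in mural cells (27.7, 10.2 and 51.7 CPM, 10 UMIs). In neurons it held, among others, for Col24a1 (1.16, 0.541 and 0.978 CPM, 9 UMIs), Col6a4 (4.64, 4.01 and 1.96 CPM) and Col25a1. For Col24a1 the next class was astrocytes at 0, where 1 UMI would be 0.893 to 1.93 CPM. Cells of no class held 8 further Col24a1 UMIs, so its separation rests on the depth of the neuron class. The same separation held as well for Col2a1, the main cartilage collagen, in oligodendrocytes (19.7, 0.786 and 1.67 CPM, 11 UMIs).

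Few UMIs were counted for the remaining genes. Neurons held 39 to 80 UMIs each of Col9a2, Col7a1 and Col26a1, and 9 to 20 UMIs each of Col20a1 and Col22a1. Col6a6 was counted in endothelial cells (25.8, 10.6 and 0 CPM) and Col6a3 in fibroblasts (739, 85.0 and 0 CPM, 9 UMIs). Col9a1, Col14a1 and Lama3 had no class with over 5 UMIs. The annotated spans of 13 genes of the list, introns included, overlap a gene of the other strand, and that of Lamb3 a gene of its own strand (4930570N18Rik). Overlap of reads was not examined, and the strand setting of the counting is not given in the sources used here.

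Col4a3bp, the ceramide transfer protein caught by the symbol, had its highest mean level in endothelial cells. It measured 134, 79.6 and 138 CPM in endothelial cells, 39.5, 40.8 and 54.4 CPM in neurons and 0, 15.2 and 7.39 CPM in mural cells. It was lower in mural than in endothelial cells by log2 -3.20 ± 0.56 (edgeR adjusted p = 0.0001) and was the 1 gene of the list lower there. It passed the count filter only through endothelial cells, so this call is no support.

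Genes that fold, trim and bind these proteins were taken from a list of 56 matrix pathway genes. Here too, a call is no support where the gene passed the count filter only through the class where it is high. Pcolce and Itgb1 between fibroblasts and mural cells, and Nid1 between mural and endothelial cells, were such genes. In mural over endothelial cells 22 were tested, 12 were higher (15.6% of all genes were) and 1 lower (18% were), with 6 higher without library 2 or library 3 and 8 higher by DESeq2. Pcolce, which enhances the trimming of procollagen, measured 471, 198 and 200 CPM in mural cells and 1 UMI in endothelial cells, and 1056, 1147 and 1369 CPM in fibroblasts. It was higher in fibroblasts than in mural cells by 2.11 ± 0.43 (edgeR adjusted p = 0.00166). The fibril-binding proteoglycan Aspn measured 166, 793 and 628 CPM in mural cells and 0 in fibroblasts, whereas Fmod measured 27.7, 35.6 and 22.2 CPM in mural cells and 211, 552 and 948 CPM in fibroblasts. Fmod had no endothelial UMI and was at least 157-fold higher in fibroblasts by the 3-UMI floor.

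Of the linkers of the basement membrane, Nid1 (nidogen) measured 249, 208 and 185 CPM in mural cells and 36.2, 42.4 and 30.6 CPM in endothelial cells and was the 1 of 4 linkers tested that was higher in mural cells. Hspg2 (perlecan), Agrn (agrin) and Sparc did not pass that test. Itga6, a laminin receptor chain, ran the other way, at 186, 308 and 318 CPM in endothelial cells, 2 UMIs in mural cells and 0 in fibroblasts. In fibroblasts it was at least 4.002-fold lower than in endothelial cells by the 3-UMI floor. Itgb1, the common beta1 integrin, measured 692, 452 and 643 CPM in mural cells and 106, 170 and 0 CPM in fibroblasts, where it was lower (log2 -2.41, edgeR adjusted p = 0.0109).

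In fibroblasts over mural cells 6 pathway genes were tested, 2 were higher (Pcolce and the protease inhibitor Timp3; 7.89% of all genes were) and 1 lower (Itgb1; 13.2% were), and without library 1 or library 2 none kept its edgeR call. In fibroblasts over endothelial cells 16 were tested, 8 were higher (6.48% of all genes) and 1 lower (9.55%), and none kept its edgeR call with any library left out. For vascular and stromal over parenchymal classes 30 were tested, with 14 higher (9.13% of all genes), including Nid1 and Bgn, and 3 lower (15.8% of all genes): Sgcb, Ddr1 and Timp2. Left-out libraries moved the 14 to between 10 and 15. Between neurons and astrocytes 18 of 22 tested were lower in neurons (30.7% of all genes were) and 0 higher by edgeR (29.4% were), with 0 higher at an unadjusted p under 0.05 and 0 by DESeq2. In D1 against D2 neurons 15 were tested, of which edgeR called 0, DESeq2 0, and 2 had an unadjusted p under 0.05. Sparc, a collagen-binding protein, separated microglia (1116, 1525 and 1502 CPM) from macrophages (12.9, 15.7 and 39.6 CPM; log2 5.99), which were lower in 3 of 4 pathway genes tested (10.2% of all genes).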

How the data were processed

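Gene-by-cell UMI counts were deposited by the authors as 1 matrix made with Cell Ranger 3.0.0, per the file header, from the 10x 3′ v2 kit, per the labels, with build mm10, per the submitters' processing notes. These counts are not normalized. Cells entered with 300 or more genes detected and no more than 20% of UMIs from mitochondrial genes, and the highest Scrublet scores (scanpy 1.11.5, expected rate 0.06) were removed at 0.8% per 1000 cells, 44, 296 and 28 cells by library. A cell entered a class with at least 3 distinct markers of it (2 within neurons and mural cells) and at least 2 times as many as of any other class. Trac and Trbc2, 2 markers, were absent from the features.

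Counts were summed per library and class (at least 5 cells), scaled to CPM for levels, and tested with edgeR 4.0.16 in R 4.3.3 (TMM, filterByExpr, robust quasi-likelihood fit, library as a block), with Benjamini-Hochberg adjustment over all genes tested and a threshold of 0.05. A member tested had passed filterByExpr in that comparison. The library block pairs the sums of 2 classes that come from the same library. DESeq2 1.42.0 and the other alternatives are in the closing section, and the fits were tested on simulated counts. Construct features stayed out of the tests, and 1 ependymal cell was not used. The values of 1 gene of the list are not reported here. Intervals, floors and ratios cover counting error only. Sequences are from RefSeq (GRCm38.p6) and positions from GENCODE M21, which matched 50 of 50 genes.

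The genes, structural lists, pathway list and tests were chosen with earlier results of these data known, and the genes named per comparison were up to 5 members (3 pathway genes) higher and lower with the largest change among those past the threshold with 1 direction in every library, beside the leading members of each set.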

Additional observations from a re-analysis of the deposited data

Results flagged for a closer look

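Cells that no class took held much of the fibrillar collagen RNA. These 1704 cells (17.2% of those kept, median 972 UMIs) stayed out of every comparison and held 237 of 330 Col1a1 UMIs, 319 of 545 Col1a2 UMIs and 433 of 710 Col3a1 UMIs, above the level of 3 counts that a count of 0 allows. Together that is 62.4% of 1585 UMIs, against 202 UMIs in fibroblasts and 228 in mural cells. By library these cells held 101, 95.1 and 11.5 CPM of Col1a1, 124, 124 and 36.1 CPM of Col1a2 and 250, 147 and 47.5 CPM of Col3a1. Only 94 of them had any of the 3 RNAs, and 26 cells with at least 5 such UMIs held 895 of them. The highest, in library 2, held 303 among 26487 UMIs. Among the 26, 25 had a UMI of Dcn, a fibroblast marker, and 21 one of Vtn, listed as a mural marker, while 19 of the 27 fibroblasts had Vtn as well. Of the cells in no class, 30 had at least 3 fibroblast markers, more than the 27 fibroblasts, and they held 695 of the 989 UMIs. By the gate's construction these 30 were left out because another class came within 2 times of their fibroblast marker count. The ungated share was 47.1% for the fibrillar set, 27.7% for basement membrane collagens and 18.7% for laminins.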

How the results depend on the processing

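The 43 named gene results under 12 alternatives give 516 cases, of which 16 could not be tested because the gene did not pass the filter or too few libraries remained. Of the other 500, 453 kept direction and side of the threshold, 47 kept direction and lost the call, and 0 reversed. The named results are those with the largest changes and leave out weaker calls. Over all 60 calls, 14 were lost without library 1, 21 without library 2 and 18 without library 3, and 1, 6 and 0 were not tested. Counts of genes called moved more. Without the low-count filter they were 5 for fibroblasts over mural cells (3 with it), 13 for fibroblasts over endothelial cells (7), 12, 10, 6, 2 and 1 for neurons, astrocytes, oligodendrocytes, OPCs and microglia over other parenchymal classes (1, 0, 0, 0 and 0), 20 for neurons over astrocytes (11), 17 for neurons over oligodendrocytes (9), 10 for astrocytes over oligodendrocytes (3) and 1 for microglia over macrophages (0). With no 2-fold margin in the gate, an alternative added after seeing the data, the first 7 of these were 6, 13, 4, 4, 2, 1 and 1, and OPCs over oligodendrocytes gave 0 (1). In cells with at least 1000 UMIs edgeR called 0 genes for fibroblasts over mural cells (3 at an unadjusted p under 0.05), 0 for fibroblasts over endothelial cells (6 at an unadjusted p under 0.05), 0 for D1 over D2 neurons and 0 for OPCs over oligodendrocytes, and the mural fibrillar sum was 1520 CPM (861). The first 2 then had 2 libraries. With at least 4 markers in the gate the counts were 3 for fibroblasts over endothelial cells and 0 for D1 over D2 neurons and for OPCs over oligodendrocytes. DESeq2 gave 0 for both of the last (Col11a1 adjusted p = 0.745, Col16a1 0.06), as did edgeR with no replicate block, which unpairs the libraries (0.217 and 0.052). The block changed no other count by over 1.5 times, though without it 6 of 60 calls were lost: these 2, Col3a1 for fibroblasts over mural cells (adjusted p = 0.118), Col4a2 for fibroblasts over endothelial cells (0.0685), and Col4a1 (0.313) and Lamb2 (0.222) for mural over endothelial cells.

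Leaving out 1 library at a time, counts ran 0 to 3 for fibroblasts over mural cells, 0 to 0 for fibroblasts over endothelial cells, 3 to 9 for mural over endothelial cells, 9 to 15 for vascular over parenchymal classes, 1 to 2 for neurons (without library 2 the 1 gene was Col11a1, and Col6a1 was not tested), 0 to 1 for OPCs and 0 to 1 for microglia over other parenchymal classes, 0 to 1 for D1 over D2 neurons, 9 to 15 for neurons over astrocytes, 5 to 11 for neurons over oligodendrocytes, 3 to 5 for astrocytes over oligodendrocytes, 0 to 1 for OPCs over oligodendrocytes and 0 to 1 for microglia over macrophages. The cause of these moves was not tested, beyond the fewer samples or genes that each setting leaves. The fibroblast class limits depth: 3 UMIs, the most that a count of 0 allows, are 127 to 317 CPM there, against 7.96 to 15.5 CPM in endothelial cells.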
